A study of Mus musculus with 2 samples.

Results

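The 33 genes described here make up the cholesterol and fatty acid synthesis programme: 18 enzymes of sterol synthesis, 6 genes that regulate the SREBP transcription factors and sterol handling, and 9 enzymes that make, desaturate or elongate fatty acids. They were chosen by name from the pathway, with earlier results of these data known. They are 33 of the 20656 genes that could be named on the array. RNA came from bone marrow-derived macrophages (BMDMs), which are macrophages grown from bone marrow with M-CSF, and 2 conditions were measured with 1 array each. The untreated BMDMs and the BMDMs given IL-4 for 18 h both came from male 8-week-old Crif1 f/f mice, so both groups carry the floxed Crif1 allele. For these arrays neither a Cre transgene, nor the dose of IL-4, nor the number of mice behind each RNA was stated in the sources used here. The study used the arrays to look for genes that IL-4 induces in macrophages. IL-4 is a type 2 cytokine that drives them toward the alternatively activated (M2) state.

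Cells make cholesterol from acetyl-CoA through mevalonate, isoprenoid intermediates, squalene and lanosterol. The enzymes of this route are known targets of SREBP2, and enzymes of fatty acid synthesis are known targets of SREBP1. When membrane sterol is plentiful, SCAP and the INSIG proteins hold the SREBPs in the endoplasmic reticulum, and when it is scarce, SCAP escorts them to the Golgi, where they are cut and released to the nucleus. Macrophages take in cholesterol with the cells and lipoproteins they engulf, and oxysterols made from that cholesterol are known to hold back SREBP cleavage and to activate LXR.

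All 33 genes had a probe that was well above background on both arrays by the flag of the scanner software, and no gene spot was saturated. The array intensity, which the software had corrected for background, was put on a log2 scale, and each array was set to its own 75th percentile, so a scaled log2 signal of 0 is that percentile. A difference is the scaled log2 signal with IL-4 minus that of untreated BMDMs, and every fold is taken from this difference. The intensities printed beside it are those before scaling, so their plain ratio differs from the fold. The brightest probe stood for a gene that had more than 1. With 1 array per condition there is no replicate check and no test. The errors at hand are technical. For each probe printed in 10 spots, the SD of the difference over its own spots was taken. The spot SD of a gene is the median of these SDs over probes of similar signal. It was 0.045 to 0.21 on the log2 scale for these genes. The software's own error of a difference, which stems from an error of about 10% on each intensity, was 0.20 to 0.29. Neither covers the spread between cultures or animals, and in RNA of a whole culture fewer cells of a type and less RNA per cell cannot be told apart.

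With IL-4, 26 of the 33 genes lay below their untreated signal and 7 lay above it, while 52.3% of the 12744 genes measured on both arrays lay below 0. The median difference was -0.27 for the 33 genes and -0.01 for all genes measured. The differences were small. Hsd17b7, Lss and Fads1, 3 of the 33, were at least 1.5-fold lower, where 5.27% of all genes were. None of the 33 was at least 1.5-fold higher, against 5.03% of all genes. None was at least 2-fold lower or higher either, against 1.44% and 2.31% of all genes. Of the 33 genes, 23 fell within the lowest 25% of all differences, which means below -0.19, and 4 lay above 0.15, the limit of the highest 25%. The difference was further from 0 than the software's error for 25 of the 33 genes and further than the spot SD for 31. The counts at 0 and at 1.5-fold move with the scaling between arrays, which is described with the plot of the alternative scalings.

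**Figure D1:**
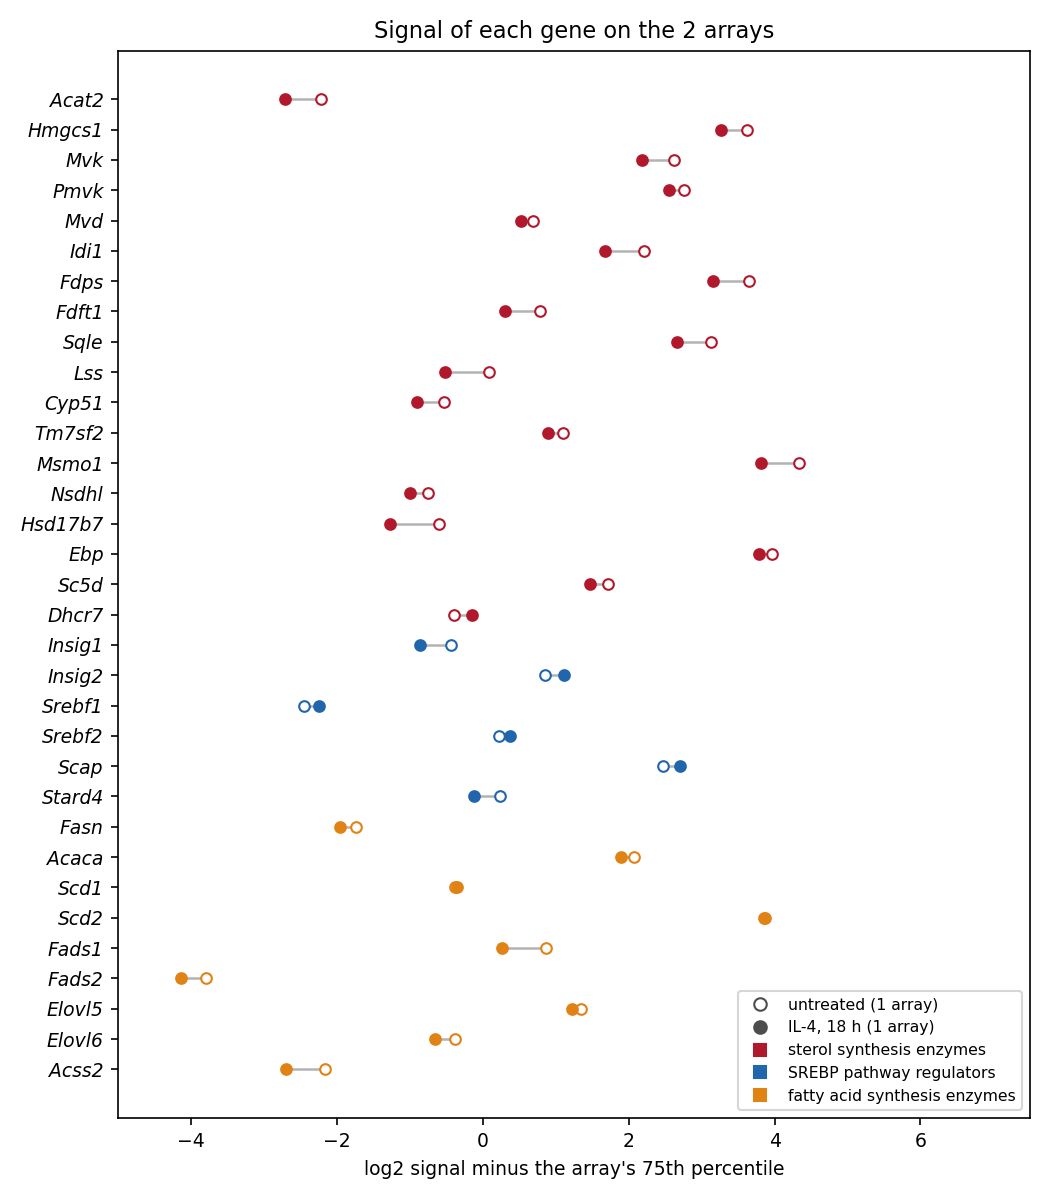
Signal of each of the 33 genes on the 2 arrays, as log2 signal minus the 75th percentile of the array, with open circles for untreated BMDMs and filled circles for BMDMs with IL-4 for 18 h (1 array each) and colours for the 3 groups of genes. The filled circle lies to the left of the open one for 17 of the 18 sterol synthesis enzymes and to the right for Dhcr7; signals of different genes come from different probes and are not compared.

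The sterol and fatty acid enzymes lay mostly below 0 and the regulators mostly above it. The 18 sterol synthesis enzymes had a median difference of -0.40, or 1.32-fold lower, with 17 below 0 and 16 in the lowest 25%. Of these 18, 15 lay below 0 by more than the software's error, where 21.9% of all genes did. The 9 fatty acid enzymes had a median of -0.22, with 7 below 0 and 5 in the lowest 25%. The 6 regulators had a median of 0.17, with 2 below 0 and 4 above. Insig1 and Stard4, the 2 regulators below 0, are themselves known targets of SREBP2, and together with the 18 enzymes they make 20 genes of which 19 lay below 0 and 18 lay in the lowest 25%, with a median of -0.40. This grouping of Insig1 and Stard4 with the enzymes was made after their values were seen and is a description.

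**Figure D2:**
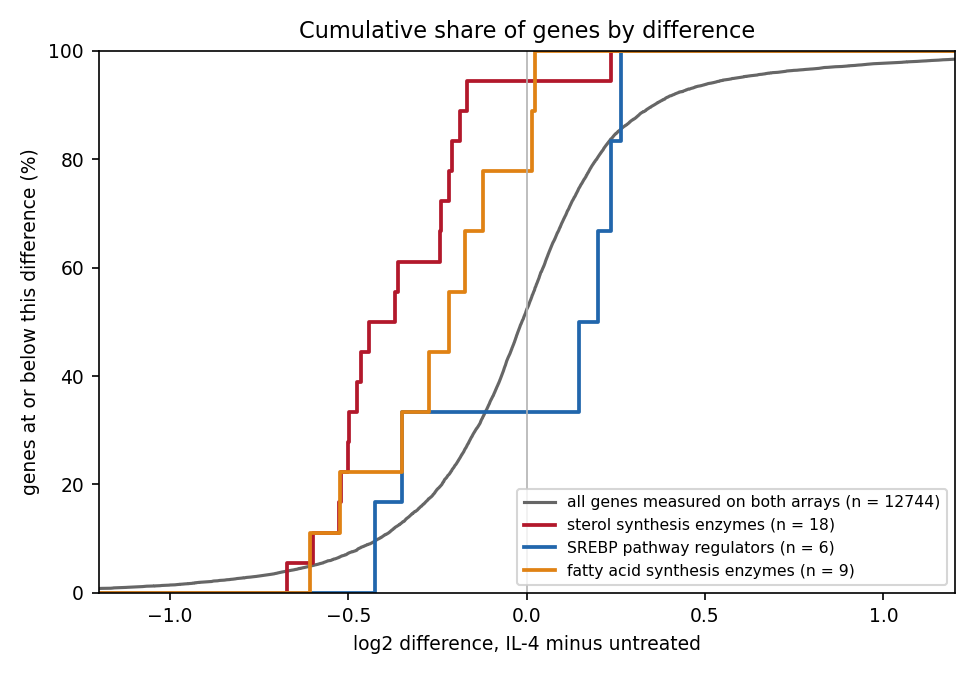
Cumulative share of genes (%) at or below each log2 difference (IL-4 minus untreated) for the 12744 genes measured on both arrays and for the 18 sterol synthesis enzymes, 6 SREBP pathway regulators and 9 fatty acid synthesis enzymes. The curve of the sterol enzymes starts at Hsd17b7 (-0.67), runs to the left of that of all genes from Lss (-0.60) on and ends at Dhcr7 (0.24), and the curve of the regulators has 4 of its 6 steps above 0, the last of them Insig2 at 0.26.

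Promoter sequence is a feature that the choice of genes did not use. RefSeq promoter windows on GRCm38.p6, each from 250 bases before to 50 bases after a start site, were at hand for 26 of the 33 genes, in 34 windows. Fdps, Fdft1, Sqle, Stard4, Scd1, Scd2 and Fads1 had none in the table. The CCAAT box, the letters CCAAT on either strand and the core of the site of NF-Y, which is known to act beside SREBP, was present in 14 of 18 windows of sterol enzymes (77.8%) and in 37.4% of the 12974 windows of genes measured on both arrays. Counted by gene, 14 of the 15 sterol enzymes with a window had it in at least 1 window (93.3%), against 42.8% of the measured genes. The GC box, GGGCGG on either strand, stood in 83.3% of the windows of sterol enzymes and in 60.6% of those of measured genes. The E-box, CACGTG, which reads the same on both strands, stood in 16.7% against 9.89%. A strict core of the sterol regulatory element, TCACNCCAC on either strand, was found in 1 of the 18 windows, that of Hmgcs1, and in 1.1% of the windows of measured genes. Among regulators the CCAAT box stood in 5 of 10 windows and among fatty acid enzymes in 3 of 6. By gene, it was present in 4 of the 5 regulators with a window (80%) and in 3 of the 6 fatty acid enzymes (50%). The GC box stood in 80% of the windows of regulators and in 33.3% of those of fatty acid enzymes. Neither box was thus particular to the sterol enzymes. A match is a run of letters and not a shown binding site, and a window without one says only that these letters are not in it.

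The 250 bases before the start site are printed for 6 genes, 5′ to 3′ on the strand of the gene, with CCAAT boxes (ATTGG where the box lies on the other strand) and the TCACNCCAC core in capitals. Hmgcs1 is shown because it alone held that core, at position -137 from the start, with 3 CCAAT boxes before the start (chr13:119690101-119690350, plus strand). Mvk is shown for its 5 CCAAT boxes (chr5:114444019-114444268, plus strand). Hsd17b7, with 3 CCAAT boxes (chr1:169969206-169969455, minus strand), and Lss, with 1 (chr10:76531355-76531604, plus strand), are shown because they had the lowest differences among the sterol enzymes. Insig1, with 1 CCAAT box (chr5:28071162-28071411, plus strand), is shown as the feedback gene that was lower, and Dhcr7 as the sterol enzyme that was higher, by the 1 of its 3 windows that held CCAAT boxes, 2 of them (chr7:143829964-143830213, plus strand).
Hmgcs1: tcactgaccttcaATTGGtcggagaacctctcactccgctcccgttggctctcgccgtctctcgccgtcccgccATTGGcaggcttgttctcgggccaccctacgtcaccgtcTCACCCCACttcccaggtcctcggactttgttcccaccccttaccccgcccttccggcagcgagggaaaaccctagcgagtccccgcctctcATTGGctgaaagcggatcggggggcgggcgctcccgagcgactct
Mvk: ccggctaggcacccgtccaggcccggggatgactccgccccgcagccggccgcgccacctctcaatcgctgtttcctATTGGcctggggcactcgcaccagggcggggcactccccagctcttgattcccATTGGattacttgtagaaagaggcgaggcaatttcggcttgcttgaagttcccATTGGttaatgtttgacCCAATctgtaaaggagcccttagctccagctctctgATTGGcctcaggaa
Hsd17b7: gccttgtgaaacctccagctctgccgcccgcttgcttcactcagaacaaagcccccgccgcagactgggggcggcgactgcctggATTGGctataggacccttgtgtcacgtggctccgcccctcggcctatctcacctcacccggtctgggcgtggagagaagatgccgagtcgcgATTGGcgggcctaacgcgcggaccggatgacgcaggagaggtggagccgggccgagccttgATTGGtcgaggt
Lss: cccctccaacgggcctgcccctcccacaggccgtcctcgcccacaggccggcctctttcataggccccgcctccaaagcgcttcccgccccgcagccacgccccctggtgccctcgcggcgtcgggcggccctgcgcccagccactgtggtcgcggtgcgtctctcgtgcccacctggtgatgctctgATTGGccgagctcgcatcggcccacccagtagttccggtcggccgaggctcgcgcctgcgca
Insig1: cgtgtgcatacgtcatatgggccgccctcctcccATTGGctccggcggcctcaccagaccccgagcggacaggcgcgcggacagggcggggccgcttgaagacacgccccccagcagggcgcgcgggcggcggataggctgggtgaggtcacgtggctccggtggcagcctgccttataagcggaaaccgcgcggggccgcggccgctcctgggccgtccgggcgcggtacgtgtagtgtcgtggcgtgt
Dhcr7: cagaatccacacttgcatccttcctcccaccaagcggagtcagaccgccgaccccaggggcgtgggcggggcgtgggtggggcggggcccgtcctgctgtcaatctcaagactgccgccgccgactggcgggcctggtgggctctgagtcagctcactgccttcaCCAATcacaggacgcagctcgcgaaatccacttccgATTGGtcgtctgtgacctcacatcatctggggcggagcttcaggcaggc
The Dhcr7 window was picked for its CCAAT boxes, and the other windows of Dhcr7 held none. Whether these letters separate Dhcr7 from the enzymes that were lower cannot be read from a window picked in this way.

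The first 7 enzymes, from acetyl-CoA to farnesyl diphosphate, were all lower with IL-4, with a median difference of -0.44. Acat2, the thiolase that joins acetyl-CoA units at the entry to the route, had an intensity of 197 in untreated BMDMs and 149 with IL-4, a difference of -0.50 with a spot SD of 0.11. Hmgcs1, which makes HMG-CoA, went from 11308 to 9432, a difference of -0.36 with a spot SD of 0.049. Both lay below 0 by more than 3 times the spot SD. Mvk, the kinase that phosphorylates mevalonate, read 5647 in untreated BMDMs and 4458 with IL-4, and its difference was -0.44. Pmvk, the next kinase, read 6213 and 5754, a difference of -0.21. Mvd, which makes isopentenyl diphosphate, read 1475 and 1407, a difference of -0.17 and the smallest among the enzymes that were lower. Mvk had a second probe with a difference of -0.45, and Pmvk had one with -0.13, so both probes of each kinase lay below 0. Idi1, the isomerase of isopentenyl diphosphate, read 4229 in untreated BMDMs and 3144 with IL-4, a difference of -0.53. Fdps, which makes farnesyl diphosphate, the branch point between sterols and prenylation, read 11534 and 8728, a difference of -0.50. Idi1 and Fdps were 30.6% and 29.4% lower on the scaled signal, and their spot SDs were 0.054 and 0.049.

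The 3 enzymes that commit farnesyl diphosphate to sterols had a median difference of -0.47. Fdft1, squalene synthase, read 1573 in untreated BMDMs and 1213 with IL-4, a difference of -0.47. Its second, dimmer probe had a difference of -0.21, in the same direction and smaller. Sqle, squalene epoxidase and a known control point of the route, read 7980 and 6197, a difference of -0.46 with a spot SD of 0.048. Lss, which closes the ring to lanosterol, read 968 and 685, and after scaling was 1.51-fold lower, with a difference of -0.60 and a spot SD of 0.061. All 3 were lower by more than the software's error.

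Of the 8 enzymes that turn lanosterol toward cholesterol, 7 were lower and Dhcr7 was higher, with a median of -0.24. Cyp51, the lanosterol demethylase, read 632 in untreated BMDMs and 524 with IL-4, a difference of -0.37. Tm7sf2, a sterol reductase, read 1970 and 1815, a difference of -0.22, and its second probe had -0.33. Msmo1, the sterol methyl oxidase, read 18434 and 13775, a difference of -0.52 with a spot SD of 0.046. Msmo1 was thus among the enzymes furthest below 0. Nsdhl, which acts after Msmo1 in removing methyl groups, read 541 and 490, a difference of -0.24, and its second probe had -0.36. Hsd17b7, the keto reductase that ends this demethylation, read 605 and 407, and after scaling was 1.59-fold lower. Its difference of -0.67 was the lowest of all 33 genes, 4.01% of the genes measured lay below it, and its second probe had -0.59. Ebp, the sterol isomerase, read 14333 and 13485, a difference of -0.19 that lay inside the software's error. Sc5d, the desaturase before Dhcr7, read 3001 and 2722, a difference of -0.24.

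Dhcr7, which reduces the last precursor to cholesterol, was the exception. Its intensity was 698 in untreated BMDMs and 880 with IL-4, and after scaling the signal was 1.18-fold higher, with a difference of 0.24, a spot SD of 0.061 and a software error of 0.20. It rests on 1 probe in 1 spot.

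In the order of differences, only 5 of the 17 pairs of neighbouring sterol enzymes were further apart than the larger spot SD of the pair. These gaps lay between Hsd17b7 and Lss, Lss and Idi1, Mvk and Cyp51, Hmgcs1 and Nsdhl, and Mvd and Dhcr7. A gap carries the errors of both genes, so a gap above the spot SD of a single gene does not by itself resolve their order. Only the gap between Mvd and Dhcr7, 0.40, was also above 0.20, the lowest software error of a difference among the 33 genes. The order within the other pairs was not resolved. Idi1, Msmo1, Fdps, Acat2, Fdft1, Sqle and Mvk followed one another from -0.53 to -0.44 with no gap above the spot SD. Probes of one gene gave the same direction: all 6 sterol enzymes with several probes had them all below 0, and of 24 probes of sterol enzymes 23 were lower. Across all 33 genes 36 of 44 probes were lower, and 9 of the 10 genes with several measured probes had all of them on one side of 0, the exception being Srebf2.

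**Figure D3:**
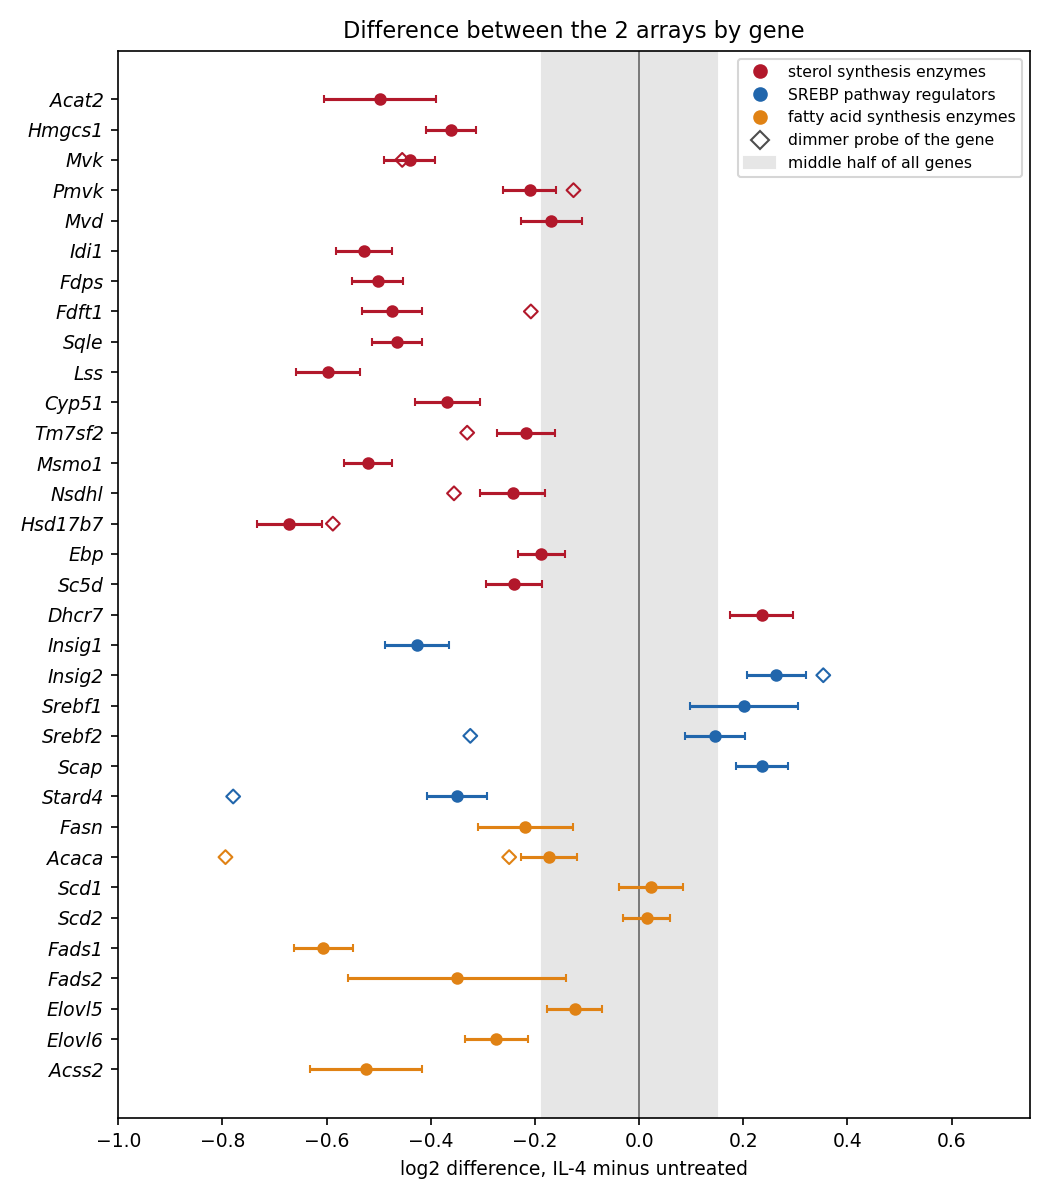
Log2 difference (IL-4 minus untreated) of each of the 33 genes, with bars for 1 spot SD to either side, open diamonds for other probes of the same gene that were measured on both arrays, and a grey band from -0.19 to 0.15 that holds the middle 50% of all genes. Of the sterol enzymes 16 lie left of the band, Ebp near its edge, and the second probe of Srebf2 (-0.32) lies on the other side of 0 from its brightest probe (0.15).

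The regulators fell into a lower and a higher set. Insig1, which retains SCAP in the endoplasmic reticulum and is known to be induced by SREBP itself, read 679 in untreated BMDMs and 541 with IL-4, and after scaling was 1.34-fold lower, with a difference of -0.43 and a spot SD of 0.061. Stard4, a cytosolic sterol carrier, read 1075 and 904, and after scaling was 1.27-fold lower, with a difference of -0.35, and its dimmer second probe had -0.78. Both of these genes lay among the sterol enzymes in their difference. Insig2, the second INSIG protein, went the other way, with 1651 in untreated BMDMs and 2123 with IL-4, a difference of 0.26, and 0.35 on its second probe. Scap, the sterol sensor that carries the SREBPs, read 5056 and 6378, a difference of 0.24. Srebf1, which encodes SREBP1, read 168 and 207, a difference of 0.20 with a spot SD of 0.10. Of these 3 genes, Insig2 and Scap lay above 0 by more than the software's error and Srebf1 lay inside it. Srebf2, which encodes SREBP2, read 1067 and 1264, a difference of 0.15 inside the software's error. Its second probe, of the same transcript accession and of similar signal, had a difference of -0.32, so the direction of Srebf2 was not settled. The 4 genes of the SREBP machinery without Insig1 and Stard4 had a median of 0.22 on their brightest probes. That set leaves out the only regulators below 0, and it was formed after their values were seen. Its median above 0 therefore follows from the choice and is a description.

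Among the fatty acid enzymes the desaturase Fads1 and the acetyl-CoA synthetase Acss2 stood lowest. Fads1, which makes arachidonic acid from its precursor, read 1675 in untreated BMDMs and 1179 with IL-4, and after scaling was 1.52-fold lower, with a difference of -0.61 and a spot SD of 0.057. Acss2, which makes cytosolic acetyl-CoA from acetate, read 203 and 151, and after scaling was 1.44-fold lower, with a difference of -0.52 and a spot SD of 0.11. Its second probe passed the background flag in untreated BMDMs and not with IL-4, which gives a bound of -0.36 for its difference. Fads2, the partner of Fads1 in making polyunsaturated fatty acids, was dim, at 66.0 and 55.5, and its difference of -0.35 had a spot SD of 0.21 and a software error of 0.29. On this scale Fads2 lay below 0 beyond both errors, with the widest errors of the 33 genes. Under alternatives described below it was -0.11 with quantile normalization, -0.15 with cyclic loess and -0.04 with spike-in scaling, each inside both errors. Over all alternatives Fads2 ranged from -0.40 to -0.04. Acaca, which makes malonyl-CoA, read 3836 in untreated BMDMs and 3644 with IL-4, a difference of -0.17, and its 2 dimmer probes had -0.25 and -0.79. Fasn, fatty acid synthase, read 274 and 252, a difference of -0.22 with a spot SD of 0.091. For Acaca the difference was inside the software's error and for Fasn it was slightly outside it. Elovl6, an elongase of saturated fatty acids, read 699 and 620, a difference of -0.27, and Elovl5, an elongase of polyunsaturated fatty acids, read 2335 and 2296, a difference of -0.12. Scd1 and Scd2, the desaturases that make monounsaturated fatty acids and are known SREBP1 and LXR targets, were nearly level. Scd1 read 702 and 764, a difference of 0.02 with a spot SD of 0.061. Scd2 read 13188 and 14271, a difference of 0.01 with a spot SD of 0.045. These were the only 2 of the 33 genes whose difference was smaller than the spot SD.

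The position of these genes depended on the scale chosen between the arrays, because the differences are small. Scaling to the median of all probes moved the median of all genes from -0.01 to 0.20, and scaling to 7 spike-in probes moved it to 0.30. On these scales 14 and 11 of the 18 sterol enzymes lay below 0, instead of 17, and no gene of the 33 was 1.5-fold lower. Read against the median of all genes, 17 of the 18 lay below it with the 75th percentile and with each of the 12 alternatives, with the median of the enzymes minus that of all genes at -0.39. Neither that count nor that gap can change under a scaling that shifts all genes alike. The 2 alternatives that alter the filter on dim probes cannot change them either, because all 33 genes were measured on both arrays. The authors' processed values differed from the main ones by nearly the same amount for each of the 33 genes. Among the alternatives that could change the gap, it was -0.42 with quantile normalization, -0.40 with cyclic loess, -0.34 with normexp and -0.34 with the median over probes. With flagged spots kept it stayed at -0.39. Insig1 ranged from -0.48 to -0.12 and Stard4 from -0.56 to -0.04 over the alternatives, below 0 in all of them, and Dhcr7 ranged from 0.15 to 0.54. Insig2, Scap and Srebf1 stayed above 0, while Srebf2 was -0.09 when the median over its probes was taken. Scd1 and Scd2 changed sign in several alternatives.

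**Figure D4:**
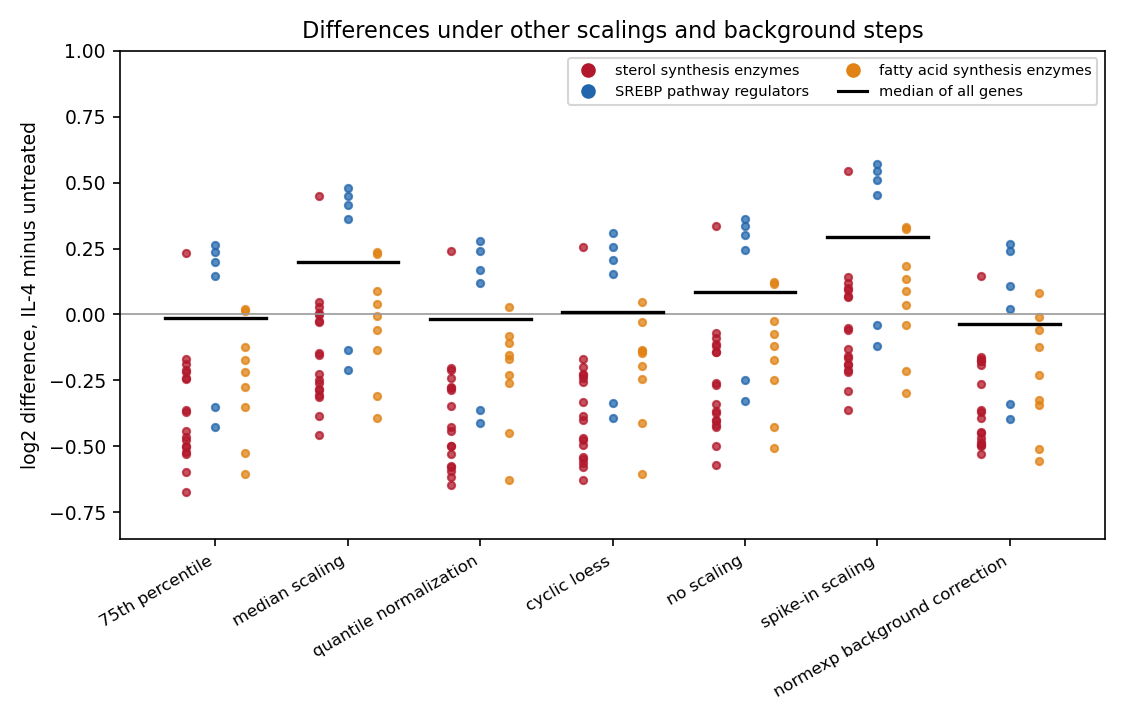
Log2 difference (IL-4 minus untreated) of the 33 genes under 7 ways to scale or correct the 2 arrays, with a colour for each of the 3 groups of genes and a black bar for the median of all genes. Scaling to the median or to spike-in probes lifts all genes, to medians of 0.20 and 0.30, and the sterol enzymes keep their place below the bar, with Dhcr7 alone above it.

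Around these 33 genes, 57 other genes of sterol and fatty acid handling were read as a wider list. Of these, 56 had a probe, 49 were measured on both arrays, 2 gave a bound and 5 were well above background on neither. Their median difference was -0.05, with 28 of the 49 below 0 and 21 above, where 52.3% of all genes measured lay below 0. By at least 1.5-fold, 3 of the 49 were lower and 4 higher, against 5.27% and 5.03% of all genes. The other sterol and isoprenoid enzymes, such as those of dolichol, ubiquinone and prenylation, had a median of -0.00 over 10 genes. Genes of SREBP processing and turnover had 0.01 over 12, and those of acetyl-CoA supply, elongation and desaturation had -0.07 over 19. The sterol synthesis enzymes themselves had -0.40, so their neighbours in the pathway did not share that median. The 8 genes of sterol esterification and oxysterol formation had a median of 0.17 and the widest range, from -1.01 to 2.99.

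Ch25h, which hydroxylates cholesterol to an oxysterol known to hold SREBP in the endoplasmic reticulum, had the largest difference of the wider list. It read 666 in untreated BMDMs and 5677 with IL-4, and after scaling was 7.95-fold higher, with a difference of 2.99 and a spot SD of 0.056. Cyp7b1, which breaks oxysterols down, read 296 and 508, a difference of 0.68. Cyp27a1, the mitochondrial sterol hydroxylase, read 174 and 93.4, and after scaling was 2.01-fold lower. The oxysterol enzymes thus differed in direction. Soat2, which esterifies cholesterol, read 240 in untreated BMDMs and 461 with IL-4, and after scaling was 1.79-fold higher. Acss1, the mitochondrial counterpart of Acss2, read 1281 and 3442, and after scaling was 2.51-fold higher, so the 2 acetyl-CoA synthetases lay on opposite sides of 0. Hacd4, a dehydratase of the fatty acid elongation family, read 3529 and 1974, and after scaling was 1.92-fold lower, and its second probe had a difference of -0.84. Mid1ip1, which activates acetyl-CoA carboxylase, read 7940 and 5657, a difference of -0.59.

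**Figure D5:**
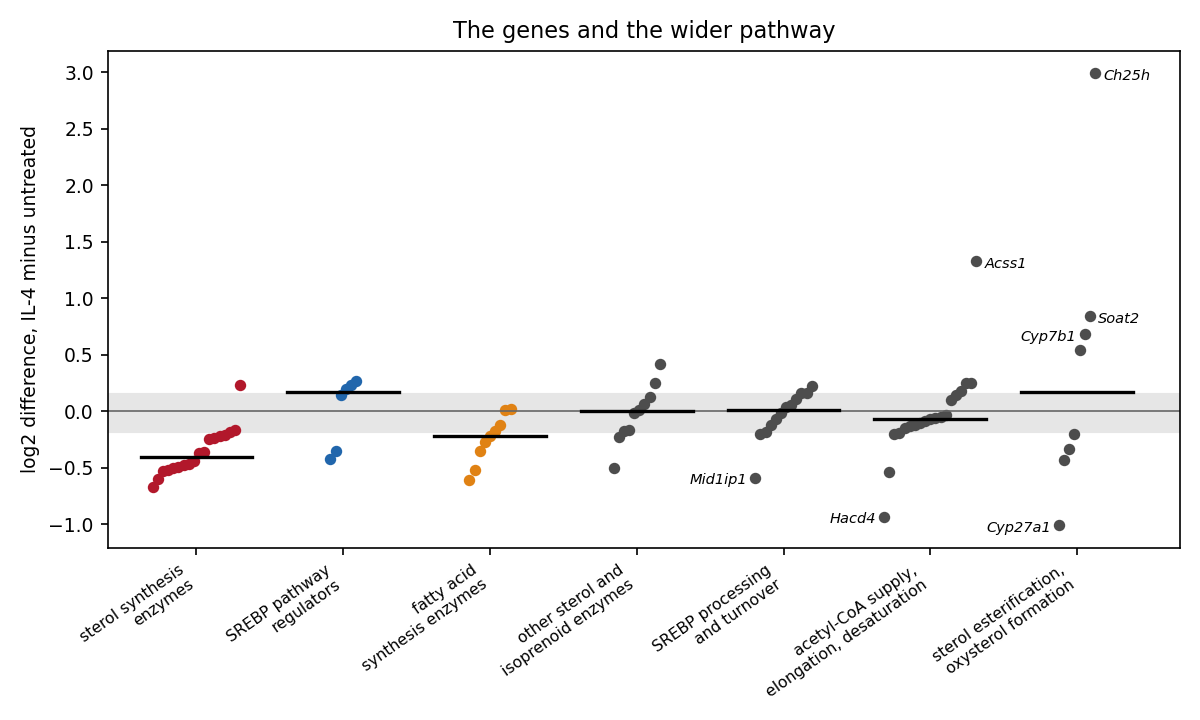
Log2 difference (IL-4 minus untreated) of the 33 genes (coloured) and of the 49 genes of the wider pathway measured on both arrays (grey), by list, with a black bar for the median of each list and a grey band for the middle 50% of all genes. Ch25h lies at 2.99, and the median of the sterol synthesis enzymes (-0.40) is the lowest of the 7 medians.

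The labels were checked against marker genes. The IL-4 array carried the known response, with Arg1 216-fold, Chil3 14.2-fold and Mrc1 5.33-fold higher and Retnla at least 595-fold higher. Of 7 macrophage markers, 6 had a probe and all 6 were well above background, with a summed scaled signal of 308 untreated and 273 with IL-4 and differences from -1.23 for Fcgr1 to 0.17 for Adgre1. Fibroblast markers were also well above background, 5 of 5, with a summed scaled signal of 347 and 316 and differences from -0.47 for Pdgfrb to 0.51 for Pdgfra. Of 5 neutrophil markers 4 had a probe and were measured, with a summed scaled signal of 5.06 and 3.78. Of 4 T cell markers, 2 were measured (Cd3e and Cd4), with a sum of 0.95 and 0.88, and of 4 adipocyte markers Adipoq was measured and Plin1 gave a bound, with a sum of 0.26 and 0.45. The 3 B cell and 4 hepatocyte markers were well above background on neither array. The summed scaled signal of the 18 sterol enzymes was 99.8 untreated and 76.8 with IL-4, a log2 difference of -0.38, beside -0.17 for the macrophage, -0.42 for the neutrophil and -0.13 for the fibroblast markers. The median difference was -0.71 for the 6 macrophage markers and -0.38 for the 4 neutrophil markers, beside -0.40 for the sterol enzymes. Of the 6 macrophage markers 4 were at least 1.5-fold lower, where 5.27% of all genes measured were. The part of other cells in the differences of the 33 genes was not tested.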

How the data were processed

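RNA of untreated and IL-4-treated BMDMs was labelled with Cy3, and each went on 1 single-colour Agilent mouse array, a number that limits the precision. The authors deposited the spot intensity from Feature Extraction 10.10.1.1, background-subtracted and detrended within each array and not scaled between arrays. A second table deposited by the authors holds processed log2 values, and how it was made is not given in the sources used here. Over the 33 genes its difference between arrays lay within 0.000565 of that from the scanner intensity, and its column medians were 0.16 (untreated) and 0.016 (IL-4). Its scale is therefore log2 and its direction is that of the labels, while the centring it received is unknown.

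Spots flagged as outliers were left out, spots of the same probe were averaged on the log2 scale, and each array's 75th percentile, 9.84 untreated and 9.94 with IL-4, was taken off. Of the gene spots, 59.8% and 57.4% were well above background. Of 39424 probes, 27229 were named through RefSeq accessions of GRCm38.p6, which also gave the promoter windows. The array's own annotation is on mm9, and none of its coordinates were used. A gene was read from its brightest probe. Where 1 array was well above background, the difference is a bound. The spot SD is the median SD over probes printed in 10 spots within 1 log2 unit of the signal. Promoter windows were searched on both strands.

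The 33 genes, the wider pathway list and the marker lists were chosen with earlier results of these data known. The genes named are all 33, those of the wider list at least 1.5-fold different, the defining markers, and Arg1, Retnla, Chil3 and Mrc1. No test between conditions was possible. Counting was tested on simulated arrays with low noise, where 200 of 200 probes changed 2-fold were recovered past 1.5-fold among 39424. This checks the counting step only. It says nothing of differences below 2-fold, such as those of the 33 genes. The alternatives were median, quantile, cyclic loess, spike-in and no scaling, a 75th percentile taken only over probes that passed the background flag on both arrays, normexp with an offset of 50 on the median pixel intensity, flagged spots kept, the median over probes, no filter on dim probes, genes measured on both arrays only, and the authors' processed values. Python 3.11.15, numpy 2.4.6, pandas 2.3.3, matplotlib 3.10.9, R 4.3.3 and limma 3.58.1 were used.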

Additional observations from a re-analysis of the deposited data

How the results depend on the processing

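The median difference of the sterol synthesis enzymes, -0.40, was -0.19 with scaling to the median, -0.30 with no scaling and -0.10 with scaling to spike-in probes. That of the regulators, 0.17, was 0.39, 0.27 and 0.48 with these, 0.064 with normexp and 0.056 with the median over probes. That of the fatty acid enzymes, -0.22, was -0.0042, -0.12 and 0.090 with these 3 scalings and -0.15 with cyclic loess. The count of genes at least 1.5-fold lower, 3, was 0 with median scaling, with no scaling, with spike-in scaling and with normexp, and the count below 0, 26, was 16 with spike-in scaling. Scaling moves every gene by the same amount, so these shifts come from the scale itself; for normexp, cyclic loess and the median over probes the cause was not tested. With normexp 12 sterol enzymes and with the median over probes 14 lay in the lowest 25% of differences, instead of 16. No gene of the 33 was 1.5-fold higher, or 2-fold different in either direction, in any of the 12. Of the 33 genes, 20 kept their direction throughout. No paired analysis was possible because there is only a single array of each kind, and for the same reason no replicate could be left out. Differences smaller than the software's error of about 0.20 log2 units, among them Mvd, Ebp, Srebf1, Srebf2, Acaca, Scd1, Scd2 and Elovl5, are not resolved by these arrays.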
